A study of Mus musculus with 2 samples.

Results

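The pyruvate dehydrogenase complex and its regulators are represented here by 9 genes, *Pdha1*, *Pdhb*, *Dlat*, *Pdk1*, *Pdk2*, *Pdk4*, *Pdp1*, *Pdp2* and *Pdpr*, out of 22367 protein-coding genes annotated outside the mitochondrial chromosome. They were taken as a named list, and the list was selected on the Mbnl2 tags that these same tables place on the genes, so every level and ratio given for them is a description and no test was made on it. Mbnl2 HITS-CLIP fixes Mbnl2 to bound RNA in frozen muscle with UV light, digests the RNA that is left bare with RNase A and sequences the protected fragments, called tags, that are purified with the protein. Quadriceps muscle came from WT mice and from *Mbnl1*-/- mice (*Mbnl1* KO, or KO below) aged 15 to 16 weeks. The labels give the C57BL/6 background for both genotypes, both keep *Mbnl2*, and the *Mbnl1* deletion is present in every tissue of the KO. High (38.6 U/ml) and low (0.0386 U/ml) RNase A were used. The authors merged 3 mice of each genotype into 1 table, so the spread between mice is not known and no p-value was computed.

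The complex sits in the mitochondrial matrix and turns pyruvate into acetyl-CoA, which commits carbohydrate to oxidation. Its E1 component decarboxylates pyruvate and is built from an alpha subunit (*Pdha1*) and a beta subunit (*Pdhb*), while the E2 component (*Dlat*) passes the acetyl group to coenzyme A. Kinases (*Pdk1*, *Pdk2* and *Pdk4*) switch the complex off by phosphorylating the E1 alpha subunit, and phosphatases (*Pdp1* and *Pdp2*) switch it on again. *Pdpr* encodes the regulatory subunit of the phosphatase. In muscle this switch sets the balance of glucose and fat as fuels, and *Pdk4* is well known for its induction by fasting. Mbnl proteins bind RNA through zinc fingers that recognise a GC step flanked by pyrimidines.

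Unique tags numbered 343554 in the WT table (5176203 reads) and 476543 in the KO table (50329234 reads), with tag lengths of 18 to 33 nt. In each table a unique tag was counted once, and 1 tag equals 2.91 tags per 1000000 in WT and 2.10 in KO muscle. Single-base tags, whose reference sequence is at least 70% the same base, made up 43.3% of the WT table and 16.8% of the KO table. Ratios below divide KO by WT tags per 1000000, and their 95% intervals (exact Clopper-Pearson, from the KO share of the tags) cover counting error only. As a check of the labels, the *Mbnl1* exon that holds the start codon (exon 2) had 5 WT and 2 KO tags, a ratio of 0.288 (0.0275 to 1.76). The deletion is named for exon 3 in the study's own numbering and its coordinates were not at hand, so the exon counted may lie outside it and checks little.

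Clusters of tags were found in most of the 9 genes. A cluster is a run of overlapping tags on the gene's strand, pooled over both tables. With a minimum of 10 tags, 14 clusters lay in 6 of the 9 genes, of which 10 were in 3′ UTRs, 3 lay past the annotated end of *Pdpr* and 1 was an intronic run of single-base tags in *Pdk1*. The sequences of the clusters with the most tags show where tags overlapped most deeply, and crosslinked bases were not called. *Pdp1*, which had no cluster of 10, is shown by its pair of 5-tag clusters. *Dlat* and *Pdp2* had no cluster of 5 tags and are not shown. Each line gives 30 bases of the mm9 reference around the deepest overlap, 5′ to 3′ on the RNA strand, and capitals mark the Mbnl motif. The motif was searched as TGCT, the form ending in C, which is TGCC, the form starting with C, which is CGCT, and the form with C at both ends, which is CGCC.

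Pdk2 3′ UTR, chr11:94887758-94887787, minus strand: cccaccctaTGCTGCCtgagcttcagaccc
Pdk2 3′ UTR, chr11:94888130-94888159, minus strand: ctgcatagtcctggccttccaagtggctgc
Pdk2 3′ UTR, chr11:94888351-94888380, minus strand: ccagatctgtctttgtagaaatctcagtgg
Pdha1 3′ UTR, chrX:156560181-156560210, minus strand: gtatcgcaacagaaatgtcatgTGCTgtga
Pdha1 3′ UTR, chrX:156560546-156560575, minus strand: aacaaccctaagctgtcggggaggctctct
Pdhb 3′ UTR, chr14:8998646-8998675, minus strand: agatactcTGCTttgtctgttactgtttaa
Pdk1 3′ UTR, chr2:71741074-71741103, plus strand: TGCTtgaggcaggcttgcactgtagatagc
Pdk4 3′ UTR, chr6:5434009-5434038, minus strand: gtgacctagagctaaggTGCTcccggttgt
Pdp1 3′ UTR, chr4:11885938-11885967, minus strand: gttatgTGCTgactaacgtctcattgcagt
Pdp1 3′ UTR, chr4:11886541-11886570, minus strand: agtagcatcaagtatttgcagctgtgtctc
Pdpr 3′ UTR, chr8:113659669-113659698, plus strand: cctactattagaggaggagTGCTGCTtttc
Pdpr 3′ UTR, chr8:113660496-113660525, plus strand: atcctttcatttctttagagcagctcaaat
Pdpr downstream, chr8:113661262-113661291, plus strand: ttacacaccgTGCTtgtctTGCTgcagttt
Pdpr downstream, chr8:113663335-113663364, plus strand: tcactgaaagcttttctagcgcatacttaa
Pdpr downstream, chr8:113663441-113663470, plus strand: tggttcTGCTcagctcccttctgttcctgt

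The first question was how many Mbnl2 tags each gene carried with and without Mbnl1. Over gene bodies, on the gene's strand, the 9 genes together had 76 WT and 377 KO tags. Per 1000000 tags these were 221 and 791, a ratio of 3.58 (2.79 to 4.64). The ratio was at least 2 at 8 of the 9 genes, and *Pdp2* had no WT tag. With all tags and scaling to the table totals, *Dlat* was the only one of these 8 whose interval included 1. Under 10 alternative settings the interval lay above 1 in all 10 at *Pdk2* and *Pdp1*, in 9 at *Pdha1* and in 8 at *Pdk1*. It did so in 7 at *Pdhb* and at *Pdk4*, in 5 at *Pdpr* and in 1 of 9 at *Dlat*. Counting by midpoint left each of these ratios unchanged. Totals without mitochondrial and unplaced sequence moved the scaling factor only from 0.721 to 0.716. Raw tags, which are not scaled, raise every ratio. Such settings could hardly lower an interval. The number of genes at a ratio of 2 was 4 when scaled to the median gene and 4 without single-base tags and tags of 1 read. In that last setting 22.4% of all gene bodies with at least 20 pooled tags reached a ratio of 2. For the scaling to the median gene this share was not computed, and the median gene body has a ratio of 1 there by construction. Among all 3877 gene bodies with at least 20 pooled tags, 41.5% reached a ratio of 2, and their median ratio was 1.74, against a median of 3.70 over the 8 genes with a ratio. The list was chosen on these values, 7 of the 9 genes had 20 pooled tags, and only *Pdk2* had 20 WT tags, so nothing is read from that difference. Neither mRNA amounts nor Mbnl2 protein are in these tables. Tag number rises with the RNA present as well as with binding, and in bulk muscle fewer cells of a type and less RNA per cell cannot be told apart.

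**Figure D1:**
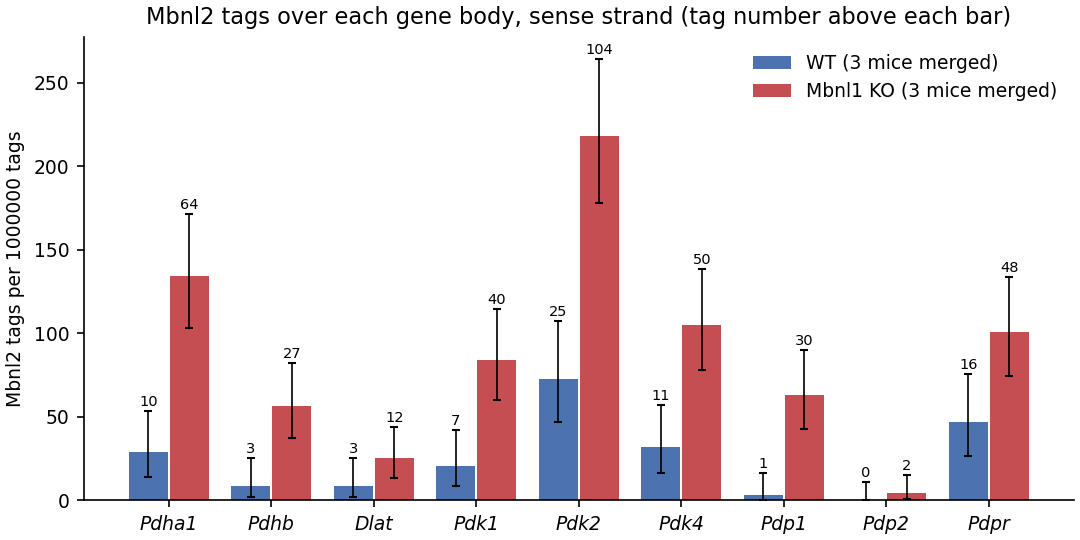
Mbnl2 tags per 1000000 over each of the 9 gene bodies in the WT and KO tables (bars, vertical axis), with exact 95% Poisson intervals for counting error and the tag number above each bar. *Pdk2* has the highest level in both tables, at 72.8 and 218 tags per 1000000, and *Pdp2* the lowest.

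The E1 and E2 subunits carried 16 WT and 103 KO tags, a ratio of 4.64 (2.73 to 8.42). Single ratios of these 3 genes have overlapping intervals. *Pdha1* (chromosome X from 156560141 to 156576345, minus strand) had 10 WT and 64 KO tags. Per 1000000 tags *Pdha1* had 29.1 and 134, a ratio of 4.61 (2.35 to 10.1). The 3′ UTR held 8 WT and 54 KO tags of this gene, and the coding sequence held 0 and 8. Tags on the *Pdha1* 3′ UTR were gathered toward its end, at a median of 1165 nt past the stop codon in a UTR of 1574 nt. Its clusters of 12 tags, at 1154 and 1519 nt, were both made of KO tags alone. Smaller clusters of the same 3′ UTR, at 1109 and 1372 nt, had 2 and 3 WT tags beside 4 and 5 KO tags. These counts are too low to rank single clusters.

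*Pdhb* (chromosome 14 from 8998505 to 9005506, minus strand) had 3 WT and 27 KO tags, a ratio of 6.49 (1.997 to 33.4). Its 3′ UTR is the shortest of the 9, at 348 nt, and held 3 WT and 23 KO tags, with all 10 tags of the main cluster coming from KO muscle. Of the 30 *Pdhb* tags, 20 matched the genome exactly in 1 place, and these gave the same ratio, 6.49, with a wider interval (1.55 to 57.7). All 5 distinct tag positions of the main cluster had 1 exact place. All 4 positions of a smaller cluster at 304 nt past the stop codon, with 1 WT and 5 KO tags, matched several places, so its reads may be shared with a near-identical copy of the sequence. *Dlat* (chromosome 9 from 50442738 to 50467885, minus strand) differed from the E1 genes in where its tags lay. It had 3 WT and 12 KO tags, a ratio of 2.88 (0.778 to 15.9), and only 1 of these 15 tags lay in its 3′ UTR of 1795 nt. The remaining *Dlat* tags were spread over coding sequence (2 WT, 4 KO) and introns (1 WT, 7 KO).

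**Figure D2:**
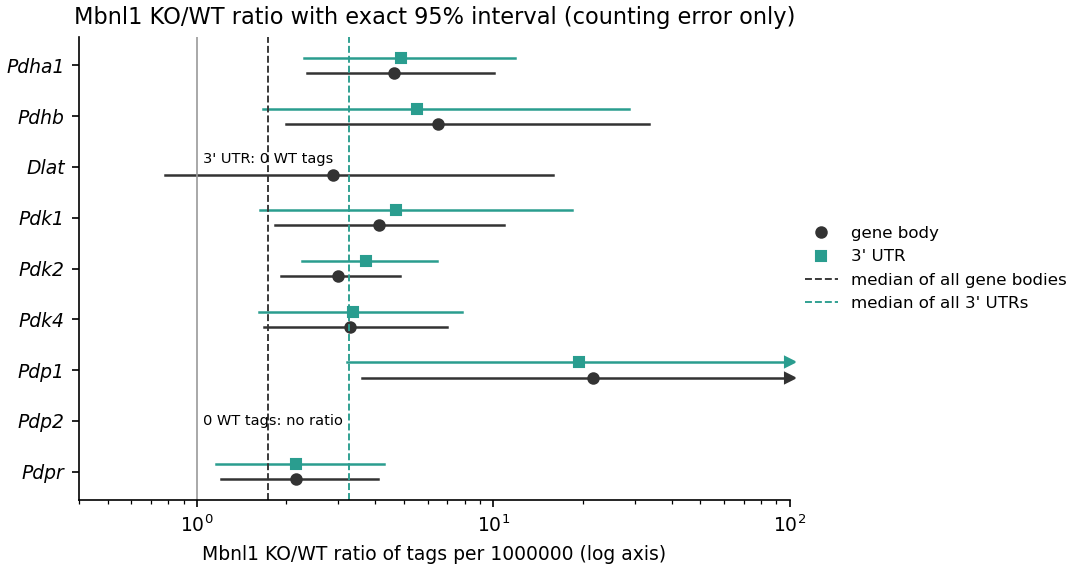
KO/WT ratio of tags per 1000000 (log axis) for the body and the 3′ UTR of each gene, with exact 95% intervals for counting error. Dashed lines mark the medians over all gene bodies (1.74) and all 3′ UTRs (3.24) with at least 20 pooled tags, and the *Pdp1* intervals run past the right edge.

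The kinases carried most of the tags, with 43 in WT and 194 in KO muscle and a ratio of 3.25 (2.33 to 4.64). *Pdk2*, the kinase isoform found across most tissues (chromosome 11 from 94887572 to 94902668, minus strand), had 25 WT and 104 KO tags; per 1000000 tags these were 72.8 and 218, a ratio of 3.00 (1.92 to 4.85). Its annotated 3′ UTR of 927 nt, 924 nt of it past the stop codon, took 19 of the WT and 98 of the KO tags. A single cluster there, deepest 723 nt past the stop codon, held 16 WT and 68 KO tags (ratio 3.06, 1.76 to 5.66) and was the only cluster of the 9 genes to reach 20 tags. The KO tags of that cluster lay at 45 distinct positions and the WT tags at 15, so it did not rest on repeats of a few fragments. Clusters nearer the stop codon, at 351 and 130 nt, had 3 and 0 WT tags beside 16 and 10 KO tags.

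*Pdk4* (chromosome 6 from 5433351 to 5446309, minus strand) had 11 WT and 50 KO tags, a ratio of 3.28 (1.68 to 6.98), of which 9 and 42 lay in the 3′ UTR. Unlike those of *Pdha1* and *Pdk2*, its tags were spread along the UTR, from 50 to 1999 nt past the stop codon. The main *Pdk4* cluster, at 1425 nt, had 1 WT and 11 KO tags. *Pdk1* (chromosome 2 from 71711281 to 71741915, plus strand), a kinase isoform known as a target of hypoxia signalling, had 7 WT and 40 KO tags and a ratio of 4.12 (1.83 to 10.9). Of these, 3 WT and 13 KO tags were single-base tags on a run in an intron, the only single-base tags over the 9 gene bodies. Without single-base tags, in the members and in the table totals alike, the *Pdk1* ratio was 3.32 (1.16 to 13.1). The *Pdk1* 3′ UTR had 4 WT and 26 KO tags, and its main cluster, 2908 nt past the stop codon, had 2 WT and 11 KO tags.

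The phosphatases and their regulatory subunit had 17 WT and 80 KO tags, a ratio of 3.39 (1.99 to 6.11). *Pdp1*, the catalytic phosphatase subunit that calcium stimulates in muscle (chromosome 4 from 11885331 to 11893599, minus strand), had the highest ratio of the 9 genes. It had 1 WT tag and 30 KO tags; the levels were 2.91 and 63.0 per 1000000, and their ratio was 21.6 with an interval from 3.6 to 882. That WT level lies under the limit of 3 tags, or 8.73 tags per 1000000, which a count of 0 allows, so the ratio has little precision. Of the *Pdp1* tags, 1 WT and 27 KO tags were in the 3′ UTR, scattered from 220 to 2207 nt past the stop codon. *Pdp2*, the other catalytic subunit (chromosome 8 from 107115368 to 107120736, plus strand), was barely detected, with 0 WT and 2 KO tags, both at or under the limit, and no ratio is given.

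*Pdpr* (chromosome 8 from 113618530 to 113660974, plus strand) had the lowest ratio of the genes with a WT tag when all tags were counted, with an interval that overlaps that of every other gene with a ratio. It had 16 WT and 48 KO tags; the levels were 46.6 and 101 per 1000000, at a ratio of 2.16 (1.21 to 4.08). Its 3′ UTR took 14 and 42 of them. The *Pdpr* cluster 1599 nt past the stop codon had 6 WT and 6 KO tags (ratio 0.721, 0.193 to 2.70), as did the cluster 2482 nt past the annotated end of the gene. In the 3′ UTR cluster the tags rested on 8409 WT and 424 KO reads, although the KO table held more reads in all. Over the whole gene body *Pdpr* had 8427 WT and 3820 KO reads, while *Pdhb* had 11 and 13974 and *Pdp1* had 3 and 5868. Of the 13974 KO reads of *Pdhb*, 11553 lay in its 3′ UTR cluster whose tags match several genome places. Reads collapsed into a tag are copies of it, so they were not used for the ratios.

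Past the annotated 3′ end, *Pdpr* differed from the other genes of the group. In the 10 kb downstream on the same strand, *Pdpr* had 19 WT and 76 KO tags, more than in its body, and a ratio of 2.88 (1.73 to 5.05). The remaining 8 genes together had 2 WT and 4 KO tags in the same span, at *Dlat* and *Pdp2*. The *Pdpr* tags lay within the first 5000 nt, with 6 WT and 32 KO tags in the first 1000 nt, 1 and 12 in the next, 8 and 28 in the one after that, and 4 and 4 beyond 3000 nt. Of the last 8 tags, 7 were single-base tags, and without them the downstream span had 15 WT and 73 KO tags. All 88 downstream tags that were not single-base matched the genome exactly in 1 place. The annotation has no other gene on that strand in the span, and the lincRNA 9430091E24Rik overlaps it on the opposite strand. Over all protein-coding genes, 17, *Pdpr* included, had at least its 95 pooled tags in the 10 kb downstream, a span in which neighbouring genes were not masked.

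**Figure D3:**
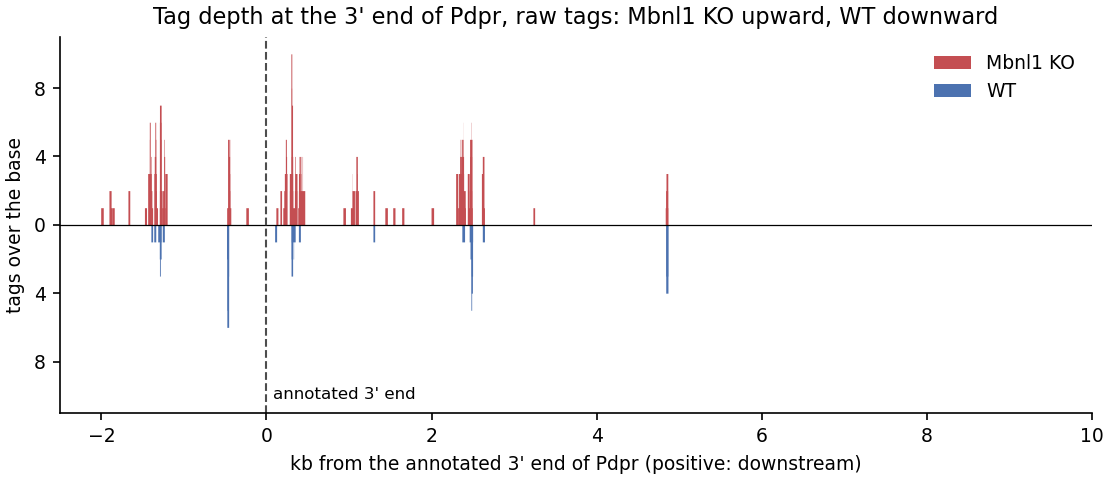
Mbnl2 tag depth (raw tags over each base, KO above and WT below the axis) against distance from the annotated 3′ end of *Pdpr* in kb. Tags continue past the annotated end, with clusters at 303, 2376 and 2482 nt that hold 4, 1 and 6 WT tags and 14, 11 and 6 KO tags.

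The second question was where in the genes the tags lay. In the 9 gene bodies, 76.3% of the WT tags (58 of 76, 65.2 to 85.3) and 83.3% of the KO tags (314 of 377, 79.1 to 86.9) overlapped a 3′ UTR. Over all protein-coding genes the shares were 16.8% in WT and 30.5% in KO muscle, and over the 16772 genes no longer than *Pdpr* (42445 nt) they were 31.7% and 46.9%. Introns took 17.1% of the WT and 9.28% of the KO tags of the 9 genes, against 75.7% and 58.4% over all genes. The intron shares were not matched for gene length. Shares over all genes still hold single-base tags, which were 43.3% of the WT and 16.8% of the KO table. Coding sequence took 6.58% and 7.16%, close to 5.69% and 9.28% over all genes. *Dlat*, with 1 of 15 tags in its 3′ UTR, was the exception to this pattern.

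**Figure D4:**
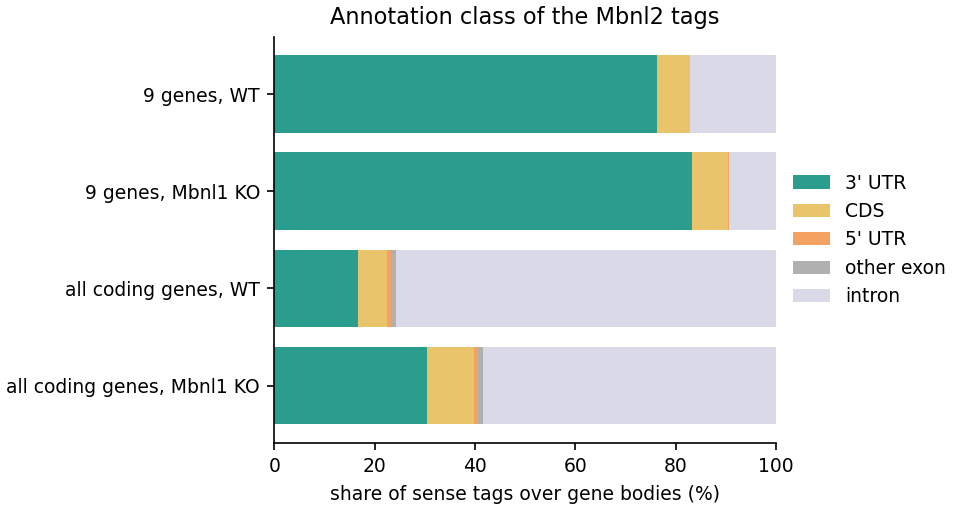
Share of gene-body tags (percent) in 3′ UTR, coding sequence (CDS), 5′ UTR, other exon and intron, for the 9 genes and for all protein-coding genes, WT and KO. The 9 genes have 76.3% and 83.3% of their tags in 3′ UTRs, against 16.8% and 30.5% over all genes.

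The location bears on how the ratios compare with other genes. Within 3′ UTRs the 9 genes had 58 WT and 314 KO tags, a ratio of 3.90 (2.94 to 5.26), against 1.94 (1.002 to 4.00) within their introns, where 3 of the 13 WT and 13 of the 35 KO tags were the single-base run in *Pdk1*. All 7 genes with a WT tag in the 3′ UTR had a 3′ UTR ratio of at least 2, with a median of 4.69. Of the 874 3′ UTRs with at least 20 pooled tags, 86.2% reached that ratio, and their median was 3.24 with quartiles of 2.43 and 4.46. That share was 59.9% without single-base tags, 45.2% with tags of at least 2 reads and 32.4% with both filters. *Pdpr* (2.16) lay under the lower quartile, *Pdk4* (3.36) and *Pdk2* (3.72) lay between the quartiles, and *Pdk1* (4.69), *Pdha1* (4.87), *Pdhb* (5.53) and *Pdp1* (19.5) lay above the upper one. All 7 had under 20 WT tags in the 3′ UTR, from 1 at *Pdp1* to 19 at *Pdk2*, and reached 20 pooled tags with their KO tags, which favours a high ratio, so nothing is read from their places. The interval of each of these 7 ratios includes the median of 3.24, and that of *Pdp1* starts at 3.21.

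Per kilobase of 3′ UTR, which makes levels comparable between genes, the order in KO muscle ran from *Pdk2* to *Dlat*. *Pdk2* had 59.7 WT and 222 KO tags per 1000000 per kb, and 30 of 16859 genes with a 3′ UTR of at least 200 nt had a higher KO level. *Pdhb* followed with 25.1 and 139, its tags that match several genome places included, and then *Pdha1* with 14.8 and 71.9. The KO intervals overlapped between *Pdk2* (180 to 270) and *Pdhb* (87.9 to 208), between *Pdhb* and *Pdha1* (54.0 to 93.8), and between *Pdha1* and *Pdk4*, so these neighbours were not separated. *Pdk4* (41.9) and *Pdpr* (31.9) had overlapping KO intervals, 30.2 to 56.7 and 23.0 to 43.1, as did *Pdpr* and *Pdp1* (23.7, 15.6 to 34.5), and *Pdp1* and *Pdk1* (14.6, 9.54 to 21.4). *Pdp2* and *Dlat* closed the order at 1.22 and 1.17, each on 1 KO tag. In WT muscle *Pdk2* also came first, with an interval (35.9 to 93.2) that overlapped that of *Pdhb* (5.17 to 73.3), *Pdha1* and *Pdpr* were level at 14.8 and 14.7, and *Pdp1* had 1.22 on 1 tag. These levels also follow mRNA abundance, which was not analysed here.

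**Figure D5:**
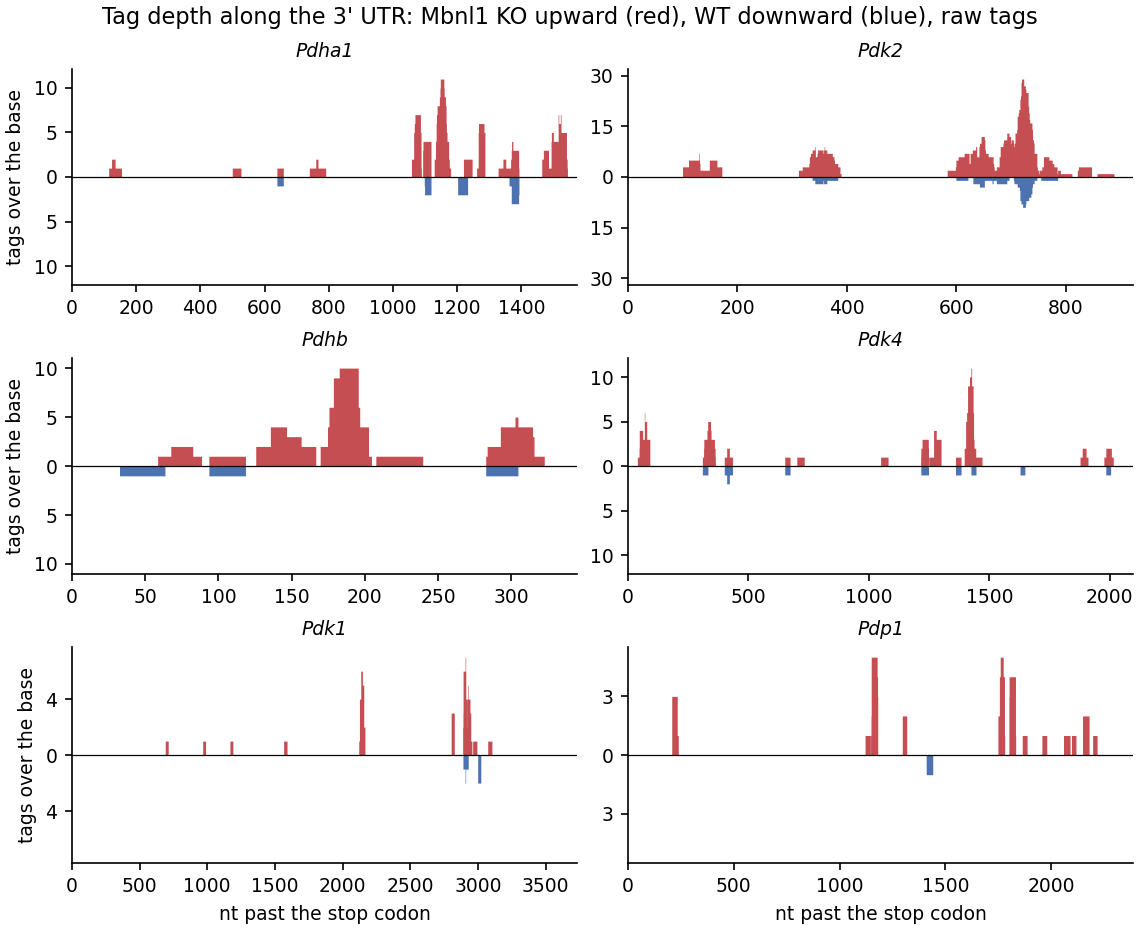
Mbnl2 tag depth (raw tags over each base) along the 3′ UTRs of 6 genes (nt past the stop codon, each panel on its own scale), with KO above and WT below the axis of each panel. *Pdha1* and *Pdk2* tags gather at medians of 1165 and 685 nt of UTRs of 1574 and 924 nt, while *Pdk4* tags are spread from 50 to 1999 nt.

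The third question was whether the tags carried the Mbnl motif. Its forms listed above were searched on the RNA strand only, with overlapping matches counted. A motif was present in 31 of the 58 WT tags on the 3′ UTRs of the 9 genes (53.4%, interval 39.9 to 66.7) and in 192 of the 314 KO tags (61.1%, 55.5 to 66.6). Over the 3′ UTRs of all genes the shares were 56.6% and 58.5%. Windows of 26 nt, near the mean tag length of 26.3 nt in KO muscle, held a motif at 23.1% of positions along these 3′ UTRs and at 24.97% along all 3′ UTRs. The genes of the complex thus carried the motif in their tags at about the share seen in all 3′ UTR tags.

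The motif was uneven within the group. In *Pdk2*, 93 of 117 3′ UTR tags held it, and the main *Pdk2* cluster contained 7 matches over its whole length, 2 of them in the window printed above. In *Pdhb* 24 of 26 tags held it, tags that match several genome places included, and these 2 UTRs were also the richest in matches, at 20.5 and 20.1 per kb. *Pdha1* differed, with 20 of 62 tags. Of its clusters of 12 tags, the window at 1519 nt holds a match and the window at 1154 nt holds none. *Pdk4* had 27 of 51, *Pdpr* 31 of 56, *Pdk1* 13 of 30 and *Pdp1* 13 of 28. Of the 13 clusters of at least 10 tags outside the single-base run, 8 had a match in the 30-nt window, and 3 of the 13 lay past the annotated end of *Pdpr*. With a minimum of 5 tags, 12 of 29 clusters had a match in the window. Over all 3′ UTRs 28.5% of 30-nt windows hold one, but those windows were taken with or without tags, so the shares are not alike. Among tags over all 3′ UTRs 56.6% in WT and 58.5% in KO muscle held one. Clusters were drawn from pooled tags, and a window without a match says only that these letters are not in it.

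Genes that work beside the 9 were counted in the same way. A list of 10 further genes of pyruvate entry (the kinase *Pdk3*, the testis E1 alpha subunit *Pdha2*, the E3-binding protein *Pdhx*, the E3 component *Dld*, the pyruvate carriers *Mpc1* and *Mpc2*, the lipoate enzymes *Lias*, *Lipt1* and *Lipt2*, and pyruvate carboxylase *Pcx*) had 27 WT and 75 KO tags, a ratio of 2.003 (1.27 to 3.23). *Pdha2*, *Lipt1* and *Lipt2* had no tag in either table. Of the 7 genes with tags, 3 had a ratio of at least 2, none of them with 20 pooled tags. Of all gene bodies with 20 pooled tags 41.5% reached that ratio, and no share was computed below that minimum. These were *Pdk3* at 2.52 (0.480 to 24.9), *Mpc1* at 5.05 (1.16 to 45.7) and *Mpc2* at 3.36 (0.939 to 18.3), named after their values were seen. Only *Pcx* had 20 pooled tags, with 8 WT and 20 KO tags, all intronic, and a ratio of 1.80 (0.760 to 4.73). In their 3′ UTRs the 10 genes had 2 WT and 21 KO tags, a ratio of 7.57 (1.85 to 66.6).

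The related complexes that oxidise branched-chain keto acids and 2-oxoglutarate share the architecture of pyruvate dehydrogenase. A list of 7 of their genes (*Bckdha*, *Bckdhb*, *Dbt*, *Bckdk*, *Ppm1k*, *Ogdh* and *Dlst*) had 76 WT and 119 KO tags, a ratio of 1.13 (0.839 to 1.53), and 17 and 47 of these lay in 3′ UTRs, at a 3′ UTR ratio of 1.99 (1.12 to 3.70). Of the 7 genes, all with tags, 1 had a ratio of at least 2, *Bckdk* at 2.88 (0.575 to 27.9), named after its value was seen. None of the 4 genes with at least 20 pooled tags did, where 41.5% of all gene bodies with as many tags reached that ratio. *Ogdh*, the E1 subunit of the 2-oxoglutarate complex, had 19 WT and 44 KO tags (1.67, 0.955 to 3.03), *Dlst*, its E2 subunit, had 9 and 19 (1.52, 0.656 to 3.82), and *Bckdhb*, an E1 subunit of the branched-chain complex, had 13 and 24, all intronic (1.33, 0.651 to 2.85). *Ppm1k*, the phosphatase of the branched-chain complex, had 21 WT and 13 KO tags, a ratio of 0.446 (0.205 to 0.934), but 14 of its WT tags were single-base tags.

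Tag quality was counted at the 9 genes as well. Single-base tags were 3.95% of the WT and 3.45% of the KO tags of the 9 gene bodies. Tags resting on 1 read made up 46.1% and 28.6%, against 79.0% and 59.5% of the tables. Tags on the opposite strand of the 9 genes, counted the same way, numbered 15 in WT and 10 in KO muscle, or 16.5% and 2.58% of the tags on both strands, against 43.9% and 27.3% over all genes. Their ratio was 0.481 (0.193 to 1.14), below 1 where the sense strand had 3.58. Genes are annotated on the opposite strand at some of the 9, such as *Pdpr* with 6 WT and 6 KO of these tags, and whether the tags are background was not tested. Of the 453 sense tags of the gene bodies, 440 matched the genome exactly in 1 place.

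Markers of the tissue were checked in the same tables. All 10 skeletal muscle markers had tags in both, 2736 tags per 1000000 in WT and 6973 in KO muscle, a ratio of 2.55 (2.37 to 2.74). Of the 5 fibroblast markers all had tags, with 582 and 1855 tags per 1000000 (3.19, 2.73 to 3.73). Of the 4 adipocyte markers, 3 had WT tags, *Plin1* being at 0, and 4 had KO tags, with 17.5 and 83.9 tags per 1000000 (4.81, 2.02 to 13.9). The 3 endothelial markers had 108 and 183 (1.70, 1.14 to 2.56), close to the median of 1.74 over all gene bodies. The 3 blood markers had 40.8 and 18.9 (0.463, 0.177 to 1.15). The summed muscle, fibroblast and adipocyte markers were thus above that median along with the 9 genes, and the part of cell composition in the ratios was not tested.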

How the data were processed

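Mbnl2 HITS-CLIP tags of quadriceps muscle were analysed from 1 merged table per genotype (3 WT and 3 *Mbnl1* KO mice). The authors filtered reads for quality, aligned them with BWA to mm9 (build and tool also in the submitters' processing notes, version not given in the sources used here), removed short sequences and likely PCR duplicates, and pooled the animals. The deposited count column is a raw number of reads behind each unique tag. High and low RNase libraries are not separated in the tables.

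Tags were counted on the gene's strand over GENCODE vM1 (mm9) with Python 3.11.15, numpy 2.4.6, pandas 2.3.3, scipy 1.17.1, pysam 0.24.0 and samtools 1.23.1, and divided by the tags in the table (343554 WT, 476543 *Mbnl1* KO). *Pdp1* is the gene once named *Ppm2c*. A tag took the first class it overlapped of 3′ UTR, coding sequence, 5′ UTR, other exon and intron. Intervals are exact Clopper-Pearson at 95% (Poisson for levels), cover counting error only and compare these libraries. With 1 table per genotype there was no test. The counting was tested on simulated tags. Values are given by name for the 9 members, the genes of both further lists with at least 20 pooled tags, *Mbnl1* and the marker genes. The lists are spelled out in full, and *Pdk3*, *Mpc1*, *Mpc2* and *Bckdk* were given values outside this rule, after these were seen. A further marker list is not reported here. The members and lists were chosen with earlier results of these data known. A gene counted as past the fold at a ratio of at least 2. The alternatives were other scalings, tag filters, collapsing of tags, counting by midpoint, spans and cluster minimums. Leaving out *Pdk2* or the downstream span of *Pdpr* was chosen after the data were seen.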

Additional observations from a re-analysis of the deposited data

How the results depend on the processing

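No paired analysis was possible because each genotype is 1 merged table, and for the same reason no replicate could be left out. The ratio over all 9 genes with their 10 kb downstream (3.397) was 4.71 from raw tags, 1.96 scaled to the median gene, 2.41 without single-base tags, 2.18 with tags of at least 2 reads, 1.86 with both filters and 9.07 with tags of at least 30 nt. The 3′ UTR ratio (3.90) was 5.41, 2.25, 2.66, 2.38, 1.999 and 10.3 in the same order. The median over all 3′ UTRs moved alike, to 2.25 without single-base tags, 1.57 with both filters and 10.7 at 30 nt. The number of genes with a ratio of at least 2 fell from 8 to 4 when scaled to the median gene, where the share over all gene bodies was not computed. It fell to 4 with both filters, where 22.4% of all gene bodies reached it, and was 6 without single-base tags, where 28.9% did. The 3′ UTR share with tags of at least 2 reads was 90.2% (WT) and 87.7% (*Mbnl1* KO), with both filters again 90.2% and 87.7%, and at 30 nt 72.6% (*Mbnl1* KO). A minimum of 5 tags gave 31 clusters and of 20 tags gave 1. The cause of these shifts was not tested.

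No ratio of a single gene turned below 1 under these alternatives (lowest 1.25, *Pdpr* scaled to the median gene), and 57 of 79 intervals lay above 1. The 79 include midpoint counting, which changed no ratio of a single gene, and raw tags, which raise each ratio. *Pdha1* was 2.35 with tags of at least 2 reads and 1.97 with both filters. *Pdk2* was 1.73 scaled to the median gene and 1.79 with both filters. With tags of at least 30 nt, *Pdk2* was 12.6 (3.99 to 63.6), *Pdk4* 13.9 (3.50 to 120) and *Pdpr* 5.29 (1.51 to 28.3). Counting by midpoint gave 3.397, collapsing tags at the same position 2.84, leaving out *Pdk2* 3.53 and leaving out the downstream span of *Pdpr* 3.52. *Pdp2* gave no ratio in any setting, nor did *Dlat* at 30 nt. WT tag numbers, 0 to 25 per gene, limit the ratios.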
